A study of Fragaria x ananassa with 6 samples.

Results

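Two-colour microarrays compared ripe receptacles of strawberry (Fragaria x ananassa) injected with an RNAi construct against FaPRE1 with receptacles injected with the empty pFRN vector, and gene08608, annotated as a homolog of L-ascorbate oxidase, and gene09404, annotated as a laccase, are described here. They are 2 of the 35116 gene names on the array, and they were selected on their RNAi over control values in these same samples. Their values in that contrast are therefore given as a description, without any test. In the normalized values gene08608 was 16.9-fold and gene09404 11.9-fold higher in RNAi receptacles than in control receptacles. The log2 ratios were 4.08 ± 0.11 and 3.57 ± 0.12 (mean over 3 arrays ± SE from limma, whose variance draws on all genes). For both genes the RNAi samples lay above the control samples without overlap, which selection on this contrast favours. The share of all genes without overlap was not computed.

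Laccases and ascorbate oxidases belong to the multicopper oxidases, enzymes that pass electrons from a substrate to oxygen through bound copper and that in plants are largely secreted to the cell wall. Laccases oxidise phenolic compounds, among them the monolignols, which then couple into lignin. Ascorbate oxidase oxidises ascorbate in the apoplast, the space outside the plasma membrane, and so bears on the redox state around the wall, in which dividing and expanding cells differ from mature ones. The family also holds the SKU5-similar (SKS) proteins, which resemble these oxidases in sequence and of which several are thought to lack part of the copper sites. The name of homolog does not establish which substrate the product of gene08608 uses. The annotations are those of the study, since the sequences of the probes and of the encoded proteins were not used here.

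The study used fruits of cultivar Elsanta that were attached to the plant. They were injected with Agrobacterium tumefaciens carrying the RNAi construct or the empty vector, so that both groups had been infiltrated. The silencing was transient, and the share of cells silenced in a fruit is not given. FaPRE1 encodes an atypical HLH protein, a type of regulator without the basic region that contacts DNA. Each group had 3 samples of pooled fruits whose achenes, the true fruits with the seeds, had been removed. An RNAi and a control sample of the same replicate number shared an array, with RNAi in Cy3 and control in Cy5 on the arrays of replicates 1 and 3 and the dyes swapped on the array of replicate 2. The RNAi samples are called overexpressing in 1 field of the labels and their RNA source is given as floral buds in another, whereas titles, sources and design name the RNAi construct and fruit, which were followed. The methods describe RNA isolation from independent pools of fruits, and the labels do not name the pool of each array sample. Precision is limited by there being 3 arrays with 1 ratio each.

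Over the whole array, 7350 of 21098 genes tested (34.8%) were called at an adjusted p under 0.05 by limma, 16.9% higher and 17.9% lower in RNAi receptacles, and the median log2 ratio was -0.04. Between 44.1 and 60.4% of the gene spots were well above background in RNAi samples, against 60.7 to 72.7% in control samples. The dyes are not balanced between the groups. In Cy3 the shares were 44.1 and 47.7% for RNAi against 64.7% for control, and in Cy5 60.4% against 60.7 and 72.7%. The probe for FaPRE1 under the identifier gene30478 had log2 ratios from -0.76 to -0.01 (mean -0.33, limma adjusted p = 0.18), and a second probe that carries the name FaPRE1 had ratios from -0.54 to -0.49 (mean -0.52, limma adjusted p = 0.015). The related genes gene28320 (FaPRE2) and gene03986 (FaPRE3) had log2 ratios of -1.15 (limma adjusted p = 0.0016) and 0.74 (0.0063). The paper also measured FaPRE1, FaPRE2 and FaPRE3 by qRT-PCR in silenced receptacles, which is not compared here. Spike-in RNAs, the control RNAs of the labelling kit, set another scale. Relative to them the median gene signal of RNAi minus control samples differed by -2.10 log2 units in Cy3 and by -2.09 in Cy5. By sample it ran from -5.87 to -5.62 in RNAi samples and from -4.20 to -3.19 in control samples. With the mean shift added to every ratio 20665 genes were called, of which 0.532% were higher, against 48.5% of the calls before the shift. The shift was taken as known, so the spread between samples did not enter these calls. As the ratios centre near 0, nearly all calls being lower follows from the shift itself.

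The ascorbate oxidase homolog gene08608 was read by 1 probe with 2 spots per array, all of them well above background in the 6 samples and none saturated. The background-subtracted signal, as the mean of both spots in scanner units, was 619, 1280 and 382 in RNAi samples 1, 2 and 3, against 109, 24 and 87.9 in control samples 1, 2 and 3. The lowest RNAi sample was therefore above the highest control sample even before any normalization and with the dyes mixed. Averaged over both spots, the signal reached 16.9, 20.7 and 10.7 times the local background in RNAi samples, and 2.55, 2.12 and 2.18 times in control samples. The control signal of gene08608 thus lay close to the background, which makes its ratio depend on how background is handled.

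After background correction, loess within arrays and scaling between arrays, the log2 signal of gene08608 was 10.47, 10.71 and 9.95 in RNAi samples, against 6.50, 6.53 and 5.85 in control samples (means of 10.37 ± 0.39 and 6.29 ± 0.38, SD, n = 3 each). Both samples of replicate 3 were the lowest of their group. Within the arrays, the log2 ratios were 3.97, 4.18 and 4.09, with a 95% interval of the mean from 3.80 to 4.35. The duplicate spots of an array differed by 0.15, 0.02 and 0.32 log2 units, so that the largest gap between spots of 1 array exceeded the SD of 0.11 between arrays. In a bulk sample of tissue, more cells that carry the transcript and more transcript per cell cannot be told apart.

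**Figure D1:**
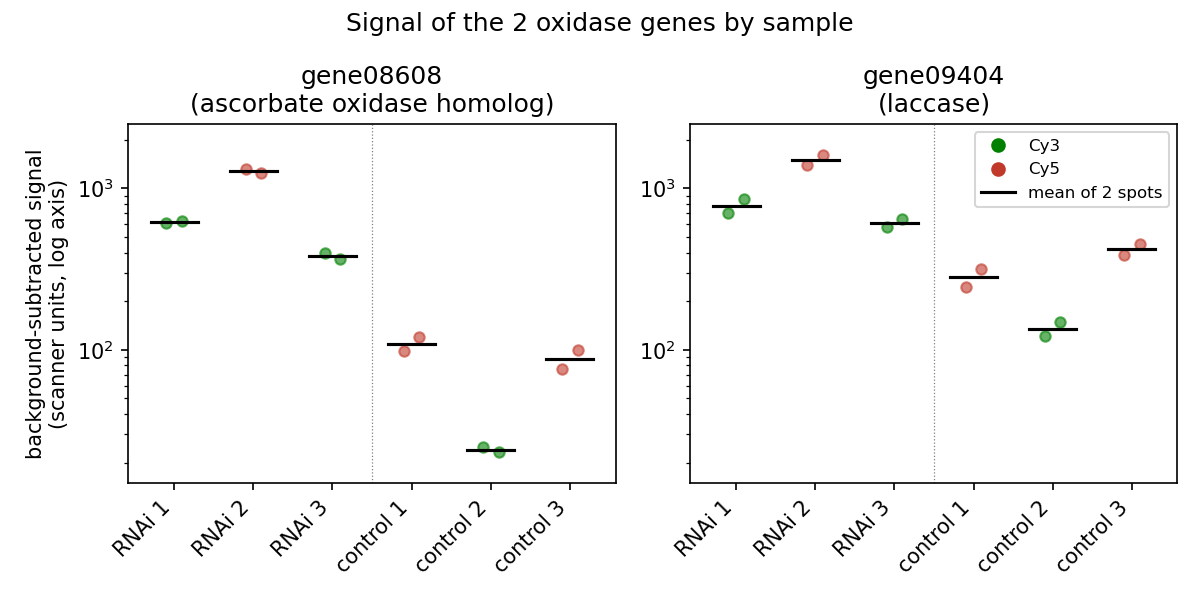
Background-subtracted signal in scanner units (log axis) of gene08608 and gene09404 in RNAi samples 1 to 3 and control samples 1 to 3. Points are the 2 spots of an array, coloured by dye, and the line is their mean. For gene08608 the RNAi means lie between 382 and 1280 and the control means between 24 and 109, and for gene09404 between 613 and 1500 in RNAi and between 134 and 419 in control samples.

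The laccase gene09404 was likewise read by 1 probe with 2 spots per array, all well above background and none saturated. Its background-subtracted signal was 777, 1500 and 613 in RNAi samples 1, 2 and 3, against 281, 134 and 419 in control samples 1, 2 and 3. Averaged over both spots, the signal stood at 21.9, 22.2 and 17.4 times the local background in RNAi samples and at 4.64, 4.68 and 6.20 times in control samples. Here the control samples also gave a signal clear of the background.

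The normalized log2 signal of gene09404 was 10.86, 10.91 and 10.94 in RNAi samples, against 7.31, 7.52 and 7.16 in control samples (means of 10.90 ± 0.04 and 7.33 ± 0.18, SD, n = 3 each). The RNAi samples were thus within 0.1 log2 units of each other. The log2 ratios on the 3 arrays were 3.55, 3.39 and 3.78, with a 95% interval of the mean from 3.27 to 3.88 and an SD of 0.20. Duplicate spots differed by 0.04, 0.09 and 0.04, less than the arrays did.

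The ratio of gene08608 exceeded that of gene09404 on all 3 arrays, by 0.42, 0.78 and 0.31 log2 units (mean 0.50 ± 0.25, SD). Ranked from the highest log2 ratio down, gene08608 was at place 6 and gene09404 at place 12 of the 21098 genes tested. The genes next to gene08608 were gene17713 (4.21) and M21A4RB__ (3.93), and those next to gene09404 were gene08095, a legumin of seed reserves (3.66), and gene23829 (3.53). The ranks have no sharp edge, since the gaps to all of these neighbours were smaller than the width of the 95% intervals given above for both oxidases.

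**Figure D2:**
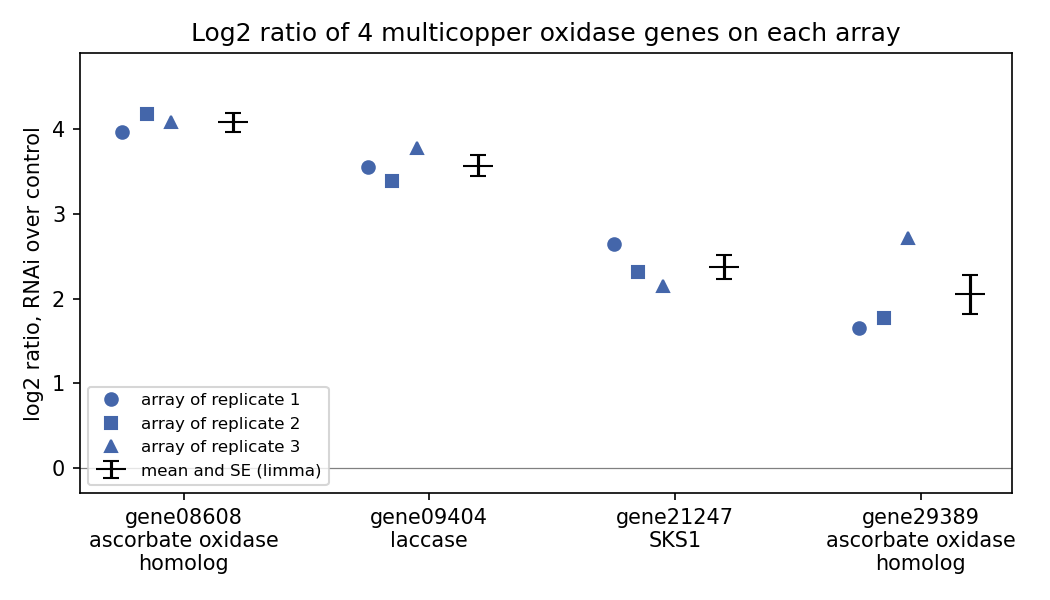
Log2 ratio of RNAi over control for 4 multicopper oxidase genes on the arrays of replicates 1, 2 and 3 (symbols), with the mean and its SE from limma. Ratios of gene08608 lie between 3.97 and 4.18, of gene09404 between 3.39 and 3.78, of gene21247 between 2.15 and 2.64 and of gene29389 between 1.65 and 2.72.

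The spike-in RNAs allow each sample to be read without assuming that most genes keep their level, though they assume that each sample received the same amount. Relative to the mean of 10 spike-in probes, the log2 signal of gene08608 was -2.85, -2.78 and -3.30 in RNAi samples 1, 2 and 3, against -6.20, -6.24 and -6.29 in control samples. Compared within a dye, the RNAi signal was higher by 3.17 in Cy3 and by 3.46 in Cy5. The control samples were nearly alike on this scale, whereas their normalized signals ran from 5.85 to 6.53.

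For gene09404 the signal relative to the spike-in probes was -2.53, -2.55 and -2.59 in RNAi samples, against -4.96, -4.30 and -4.03 in control samples. The difference was 1.74 in Cy3 and 1.94 in Cy5, with RNAi higher. The mean differences were 3.31 for gene08608 and 1.84 for gene09404. These values use background-subtracted signals without the background correction and loess of the normalized ratios. The spike-in mean of a sample is subtracted from both genes alike, so it cannot change the gap between them. When the common shift of the median gene was instead added to the loess ratios, the values were 1.99 for gene08608 and 1.48 for gene09404. The gap between both genes then stayed at 0.5. Both genes were thus higher in RNAi receptacles on each scale. The size of the difference depended on the scale and on how the signals were processed.

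**Figure D3:**
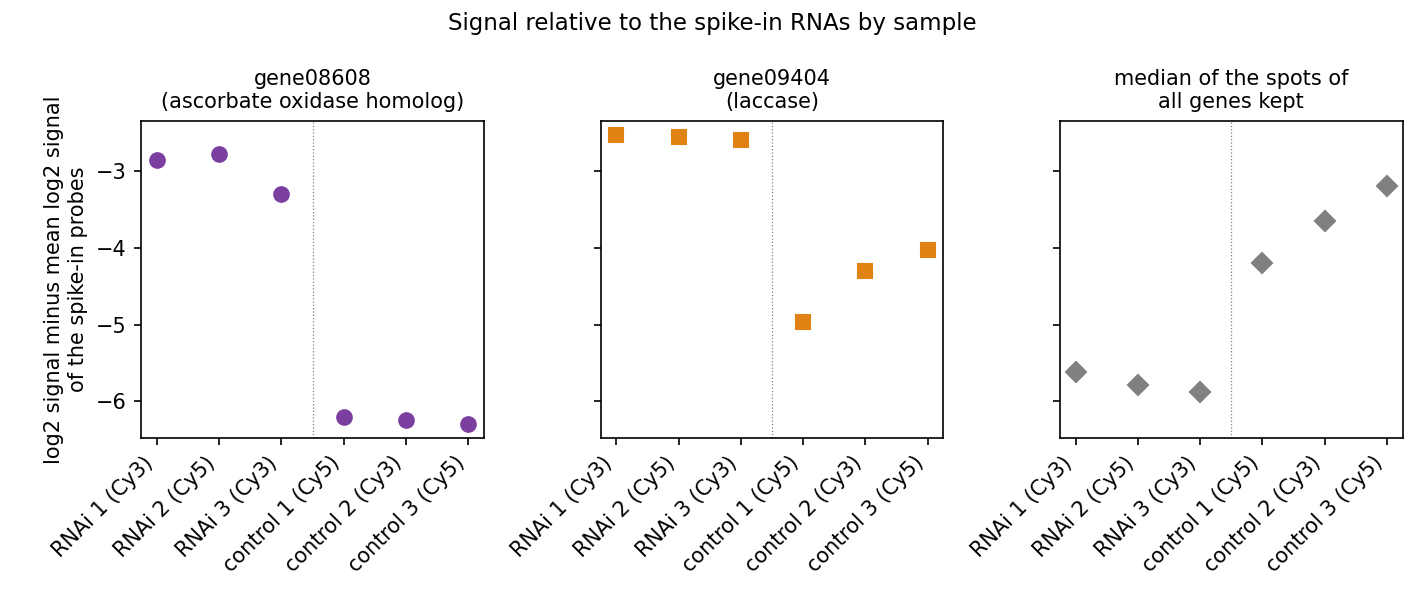
Log2 signal relative to the spike-in probes (their mean log2 subtracted) in RNAi samples 1 to 3 and control samples 1 to 3, for gene08608, gene09404 and the median over the spots of all genes kept. The dye of each sample is given on the axis. Both oxidase genes are higher in the RNAi samples, whereas the median gene lies between -5.87 and -5.62 in RNAi and between -4.20 and -3.19 in control samples.

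The processing moved the size of both ratios and not their sign. With the scanner software's own processed signals the log2 ratio was 5.74 for gene08608 and 4.16 for gene09404, and without background subtraction it was 4.30 and 3.66. Centring each array on its median in place of loess gave 3.01 and 2.21. With a dye term in the fit the ratios were 4.10 for gene08608 and 3.53 for gene09404, within the spread between arrays. Leaving out 1 array in turn kept gene08608 between 4.03 and 4.13 and gene09404 between 3.47 and 3.67. In each of these settings gene08608 had the larger ratio.

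**Figure D4:**
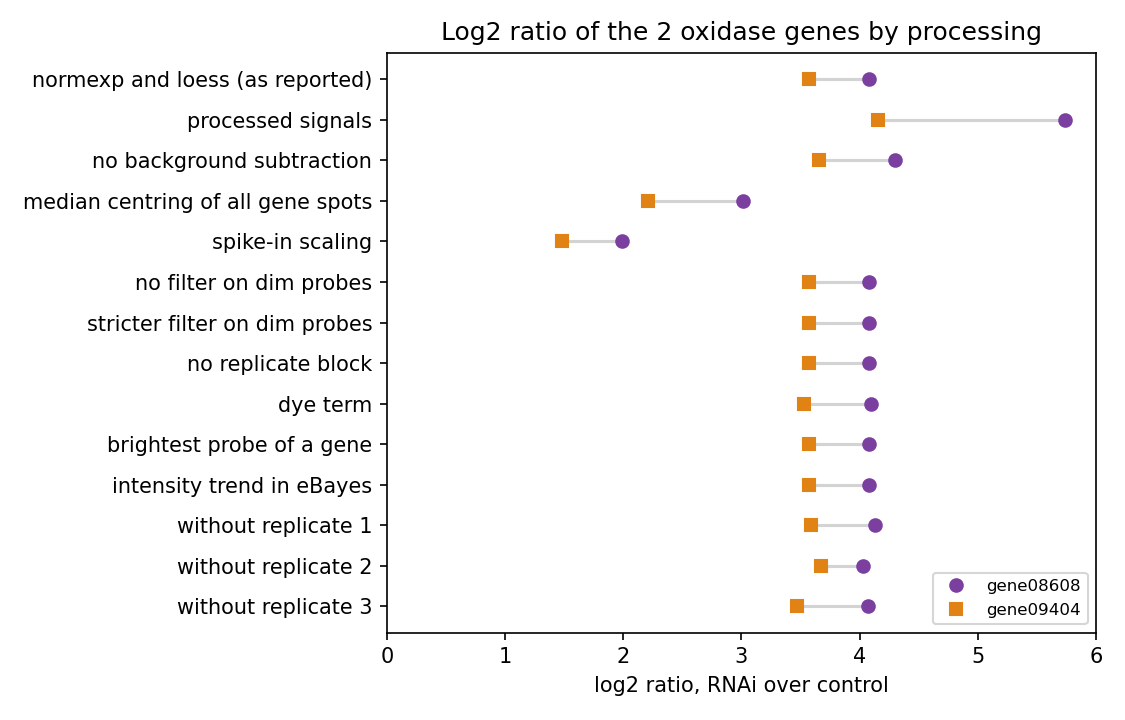
Log2 ratio of RNAi over control for gene08608 (circles) and gene09404 (squares) under each processing setting, with the setting of the reported values in the top row. Values run from 1.99 to 5.74 for gene08608 and from 1.48 to 4.16 for gene09404, and gene08608 lies to the right in every row.

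Other multicopper oxidases could be found for 5 genes with an annotation at hand. For gene29389, a further ascorbate oxidase homolog, and gene21247, annotated as the SKS1 type, the study had also selected the genes on these samples, so their direction is no independent evidence. The log2 signal of gene21247 was 12.02, 11.97 and 12.01 in RNAi samples, against 9.37, 9.66 and 9.86 in control samples, a log2 ratio of 2.37 ± 0.14 (SE). The signal of gene29389 was 13.83, 13.83 and 14.03 in RNAi samples, against 12.18, 12.06 and 11.30 in control samples, a log2 ratio of 2.05 ± 0.23. On all 3 arrays gene21247 and gene29389 had smaller ratios than gene08608 and gene09404. With the spike-in shift added, the ratio was 0.28 for gene21247 and turned to -0.04 for gene29389.

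The other genes, gene00541 and gene00542 (ascorbate oxidase-like) and gene01568 (ascorbate oxidase homolog), came from the part of the study's annotation of all genes that is ordered by identifier and so had not been chosen by value. None passed the filter on dim probes. Their signal, averaged over the spots of a gene, stood at 1.12 to 1.51 times the local background in RNAi samples and at 1.05 to 1.48 times in control samples. At this signal a difference between the groups was not detectable.

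The genes that act before and beside these oxidases were taken from the same identifier-ordered annotation, apart from those the study selected on these samples. Of 23 such genes, multicopper oxidases included, 13 were tested, 1 rose and 4 fell in RNAi receptacles (38.5% called, against 34.8% of all genes), and their median log2 ratio was -0.17, against -0.04 over all genes. The share called was thus near that of the array as a whole. Of the 12 genes that the study had selected, the median was 1.82, with 8 genes higher and 4 lower. They were chosen on these samples, so neither their calls nor their directions are independent evidence.

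Monolignols, the phenolic alcohols that laccases oxidise, are made through phenylpropanoid enzymes. Of 5 tested genes taken by identifier, 4 fell and none rose, with a median log2 ratio of -0.53. Over all genes tested, 17.9% were called lower and the median ratio was -0.04. Among the 5, gene00033 and gene00497 passed the filter only through the control group, being well above background on 3 control but 2 RNAi arrays. The stricter filter left both out, and gene00497 is among the 4 that fell. Caffeic acid 3-O-methyltransferase gene00960, which methylates lignin precursors, had log2 signals of 8.56, 8.52 and 8.46 in RNAi samples, against 9.13, 9.00 and 9.46 in control samples, a log2 ratio of -0.68 ± 0.14 (SE, limma adjusted p = 0.016). Probable cinnamyl alcohol dehydrogenases, which form the monolignols in the last step, gave ratios of -0.68 for gene00494 (adjusted p = 0.042), -0.53 for gene00496 (0.024) and -0.41 for gene00497 (0.034), and gene00033 had -0.17 (0.39). The ratios of these 4 genes were below 0 in every setting that gave a value, at -0.86 to -1.15 with processed signals, -1.08 to -2.01 with median centring and -2.50 to -2.77 with the spike-in shift, whereas their calls depended on the setting and on the arrays. With median centring none was called, gene00494 was not called with processed signals (adjusted p = 0.062) or without the filter (0.072), and gene00497 was not called with a dye term (0.056) or without the replicate block (0.15). Without replicate 3 none of the 4 calls was kept, with gene00960 at -0.53 (adjusted p = 0.095), gene00494 at -0.61 (0.17), gene00496 at -0.44 (0.15) and gene00497 at -0.42 (0.16). Without replicate 1, gene00494 (-0.48, adjusted p = 0.096), gene00496 (-0.52, 0.051) and gene00497 (-0.37, 0.11) were not called, and without replicate 2 gene00497 was not (-0.45, 0.072). Ferulate 5-hydroxylase gene01556 did not pass the filter. The called genes gene00494, gene00496 and gene00497 carry close identifiers and the same description, and whether their probes read separate transcripts was not tested.

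The study selected the other 6 phenylpropanoid genes listed here on these samples, so their directions are no independent evidence about the pathway. Those of early steps were higher and those of late steps lower in RNAi receptacles. No early enzyme was among the genes taken by identifier. Cinnamate 4-hydroxylase gene12222 and 4-coumarate-CoA ligase gene15877, early enzymes of the pathway, had log2 ratios of 2.18 and 2.65. The cinnamyl alcohol dehydrogenase genes gene20698 and gene20700 had ratios of -2.30 and -1.44, and the cinnamoyl-CoA reductase genes gene29482 and gene29483 ratios of -1.57 and -2.44. With the spike-in shift added, gene12222 was at 0.08 and gene15877 at 0.56.

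Class III peroxidases oxidise monolignols with hydrogen peroxide in place of oxygen, and NADPH oxidases supply superoxide from which that peroxide can form. None of the 4 tested genes taken by identifier was called, where 34.8% of all genes tested were. With 4 genes this count cannot be told apart from that share. Peroxidase 73 gene01539 had a log2 ratio of 0.24 (limma adjusted p = 0.15), peroxidase 19 gene01661 of 0.02 (0.89) and the respiratory burst oxidase homolog gene00215 of -0.21 (0.36). Peroxidase 55 gene01331 had ratios of -0.83, 1.18 and 0.49 on the arrays of replicates 1, 2 and 3 (mean 0.28, adjusted p = 0.58), and without replicate 1 it was called at 0.83 (adjusted p = 0.014). Its control sample 1 had a log2 signal of 9.04, against 6.99 and 7.23 in control samples 2 and 3. Peroxidase P7 gene15778, which the study selected on these samples, had log2 signals of 10.64, 10.73 and 10.33 in RNAi samples, against 7.77, 7.45 and 6.86 in control samples, and a ratio of 3.21 ± 0.15.

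Dirigent proteins guide the coupling of phenoxy radicals such as those that laccases generate. The 2 tested genes taken by identifier were not called, where 34.8% of all genes tested were. They were gene01240 with a log2 ratio of -0.08 (limma adjusted p = 0.66) and gene01241 with -0.31 (0.075). Only the control group took gene01240 past the filter, with signal well above background on 3 control arrays but 1 RNAi array. The stricter filter left it out. The study-selected gene07606, gene34041 and gene34043 had ratios of 2.57, 1.59 and 1.39. Of these, gene34043 turned to -0.11 with median centring, and gene34041 and gene34043 to -0.51 and -0.71 with the spike-in shift. On the side of ascorbate, the nucleobase-ascorbate transporter gene00692, of a family named for nucleobase and ascorbate transport in other organisms, had log2 signals of 9.23, 9.41 and 9.01 in RNAi samples, against 8.17, 8.02 and 8.58 in control samples. It rose by 0.96 ± 0.20 (limma adjusted p = 0.015), a direction that turned to -0.32 with median centring and to -1.13 with the spike-in shift. Without replicate 2 it was not called (0.75, adjusted p = 0.073). The germin-like gene01644, of a family of wall proteins, had a ratio of 0.06 (0.72). It was well above background on 3 control but 2 RNAi arrays, and the stricter filter left it out. Another 6 genes of these 4 groups, gene00894, gene01194, gene01238, gene01232, gene00415 and gene00729, did not pass the filter on dim probes.

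**Figure D5:**
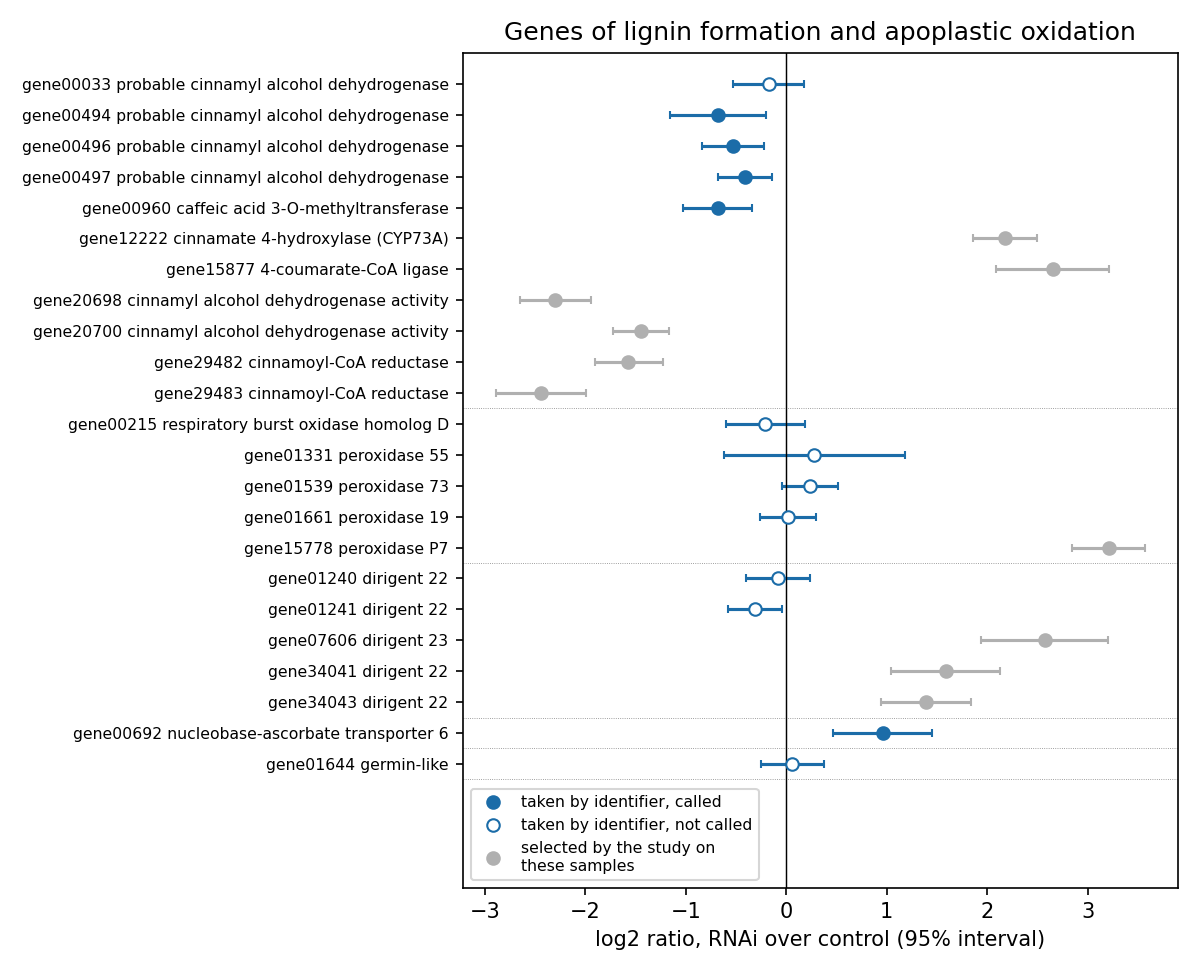
Log2 ratio of RNAi over control with its 95% interval for the tested genes of monolignol synthesis, peroxidases and NADPH oxidase, dirigent proteins, nucleobase-ascorbate transporters and germin-like proteins. Blue marks genes taken by identifier (filled where called at an adjusted p under 0.05) and grey those that the study selected on these samples. Blue points lie between -0.68 and 0.96, and grey points between -2.44 and 3.21.

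The genes whose pattern over the 6 samples was most like that of each oxidase were found by the distance between log2 signals, each centred on its mean. For gene08608 these were the aspartyl protease gene19731 (distance 0.67 log2 units), the EXORDIUM-like gene04326 (0.79), gene30593 of no known function (0.81), the legumin gene08095 (0.82) and gene00687, a protein of the major latex protein family (0.85), with Pearson's r from 0.991 to 0.998. The laccase gene09404 came next, at place 6 (0.92, r of 0.991). For gene09404 the nearest were gene23885 (0.26), gene19731 (0.32), the histone H3 gene23941 (0.32), the proline-rich protein gene22714 (0.34) and the aspartyl protease gene19159 (0.35), and gene08608 was at place 33. The aspartyl protease gene19731, with log2 signals of 10.99, 11.05 and 10.95 in RNAi samples and 7.17, 7.37 and 6.99 in control samples, stood in both sets. The 6 samples fall into the RNAi and control groups, so that any gene with a large and even difference has a high r.

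After loess, markers of seed and green tissue were higher and those of ripe receptacle lower in RNAi receptacles. The log2 of the summed signal of 6 achene genes (legumins, a vicilin and an oleosin) ran from 17.11 to 17.27 in RNAi samples, against 13.27 to 13.75 in control samples, although achenes had been removed from all fruits. That of 8 chlorophyll a/b-binding protein genes, of green tissue, ran from 14.46 to 14.52 in RNAi samples, against 12.47 to 12.54 in control samples. For 5 genes of ripe receptacle (FaMYB10, FaPG1, FaQR, FaAAT1 and FaAAT2) the sum was 13.57 to 13.96 in RNAi samples, against 17.04 to 17.31 in control samples. All 19 markers were well above background in all samples, and each was called in the direction of its list after loess. Over all genes tested, 16.9% were called higher and 17.9% lower. The study had selected all 19 on these samples, so their calls are no independent evidence. With the spike-in shift added, the 6 achene genes had ratios from 1.21 to 2.53, the 5 ripe receptacle genes stayed below 0, and 6 of the 8 chlorophyll a/b-binding protein genes turned below 0 (range -0.67 to 0.33 over the 8). The part of seed or green tissue in the values of gene08608 and gene09404 was not tested.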

How the data were processed

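The authors deposited 1 scanner file for each array, extracted with Agilent Feature Extraction (version 10.7 in the submitters' processing notes). Median signal, local background, background-subtracted signal and processed signal are intensity columns per the file headers, the processed ones after the software's background and dye correction. Other columns that the authors deposited hold spot flags. The authors treated each channel as 1 sample. Groups came from the sample descriptions. The 3 arrays shared 1 slide and 1 scan, so that no such batch could be tested.

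The analysis used limma 3.58.1 (R 4.3.3). Normexp with an offset of 50 served as background correction over all spots. Ratios were normalized within arrays by loess with control and outlier spots at weight 0, and they were turned to RNAi over control. Spots and probes of a gene were averaged. Probes entered the test if, in at least 1 group, 50% or more of the spots passed the scanner's flag for signal well above background on each of the 3 arrays. Signals per sample were scaled between arrays (Aquantile). Each gene's 3 log2 ratios were fitted by lmFit and eBayes, with Benjamini-Hochberg adjustment over all genes. The array is the block, since samples of a replicate number share it. Their deviations from the group means correlated across genes at 0.43, -0.04 and 0.17 for replicates 1, 2 and 3. Spike-in signals came from 10 probes, as background-subtracted medians, and groups were compared within each dye. The spike-in shift is the mean over the dyes of the difference for the median gene. It was treated as known, without an error of its own.

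Named were both oxidases, the measured genes of the lists, the 5 nearest genes by Euclidean distance and the neighbours in rank. The members and lists were chosen with earlier results of these data known. The annotation of all genes was at hand only in part, for the first identifiers in order. The procedure was tested on simulated data. Alternatives computed were processed signals, no background subtraction, median centring, spike-in scaling, no or a stricter filter, no array block, a dye term, the brightest probe, an intensity trend, the methods' t-test, a stricter threshold and leaving out each replicate.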

Additional observations from a re-analysis of the deposited data

How the results depend on the processing

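Both oxidase genes kept their sign under every alternative run. The values of gene08608 and gene09404 moved by more than the SD between arrays with processed signals (5.74 and 4.16, a difference of 1.58), with median centring (3.01 and 2.21, a difference of 0.80) and with spike-in scaling (1.99 and 1.48), and without background subtraction gene08608 moved to 4.30. With median centring 0 genes were called by limma, against 9060 at an unadjusted p under 0.05, the median ratio over genes was -0.86, and the calls among other multicopper oxidases and among the genes taken by identifier were 0 and 0, where 2 and 5 had been called. With spike-in scaling 20665 genes, 0 other multicopper oxidases and 13 genes taken by identifier were called, and ratios turned to -0.04 (gene29389), -0.51 (gene34041), -0.71 (gene34043), -1.13 (gene00692), -1.81 (gene01331), -1.85 (gene01539), -2.07 (gene01661) and -2.03 (gene01644). The calls with spike-in scaling follow largely from adding the same shift to every ratio. Median centring turned gene34043 to -0.11 and gene00692 to -0.32. A threshold of 0.01 gave 3419 genes. The cause of these moves was not tested. Leaving out 1 replicate gave 3458 to 7125 genes called (3458 without replicate 3, 4304 without replicate 2) and 1 to 3 calls among genes taken by identifier. No filter, the stricter filter, the brightest probe and an intensity trend gave 7089, 6396, 7345 and 8204 genes called. The methods' t-test called 8696 genes at p of at most 0.05, 410 of them with a log2 ratio beyond 2 in either direction as well, and 4934 after Benjamini-Hochberg adjustment. Without the replicate block that pairs the samples of an array, the count was 7358 and the ratios of both oxidase genes were 4.08 and 3.57. Of the called genes in the lists, only gene00497 lost its call without the block (adjusted p = 0.15), and gene01241 gained one (0.045). Among the alternatives the split of calls moved by over 10 percentage points only with median centring, which left no calls, and with spike-in scaling. The background limits the ratio of gene08608, whose single control spots stood at 1.97 to 2.86 times the local background.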
